A study of Bos grunniens with 6 samples.

Results

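The genes described here encode cytokines, chemokines, hormones of the cytokine class and the receptors that bind them. They are the rows of the deposited table annotated to the pathway map of cytokine and receptor interaction, which held 177 of the 15646 genes in the table. The leptin row was left out, as were 26 rows that were also annotated to TGF-beta or ErbB signalling, which gave 150 genes. Of these, 70 encode ligands and 73 encode receptors, soluble decoy receptors included, and 7 rows were given neither role. RNA had been sequenced from 2 kinds of cell grown out of yak (Bos grunniens) skin, in 3 libraries each. Dermal papilla cells (DPC), which the labels class as dermal, are mesenchymal cells that the base of the hair follicle encloses. Hair matrix cells (HMC), which the labels class as epidermal, are the epithelial cells that surround the papilla and divide to build the hair shaft. Both were wild type (WT), isolated and cultured with no other treatment, in DMEM/F12 medium with 10% FBS, 20 ng/mL EGF, 10 ng/mL IGF1 and penicillin-streptomycin at 37 °C and 5% CO2. Serum and both growth factors were thus given to DPC and HMC alike. The replicates are labelled as biological, but the labels do not say whether they came from separate animals or cultures, so p-values measure only the spread between these samples.

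Cytokines are secreted or membrane-bound proteins through which cells signal over short distances, and chemokines are those that direct cell movement. Receptors of the IL-6, common gamma chain and interferon groups act through JAK kinases and STAT factors, those of the IL-1 and TNF groups through adaptor proteins and NF-kB, and chemokine receptors through G proteins. In the hair follicle the papilla and the matrix lie against each other and exchange secreted signals through the growth cycle, and cytokines of the IL-1, TNF and IL-6 families are known to affect hair growth in mouse and human skin.

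The deposited values are FPKM, fragments scaled to gene length and to the mapped fragments of a library. Reads recovered from the table summed to between 13.1 and 13.4 M per DPC library and between 13.7 and 14.0 M per HMC library (M, mega). The general markers of mesenchyme and epithelium went with the labels, and whether the cells were papilla or matrix in particular was not tested. All 10 mesenchymal markers were higher in DPC and 9 of 10 epithelial markers were higher in HMC, with KRT14 as the exception at 16.2 FPKM in DPC against 15 FPKM in HMC (adjusted p = 0.605). Of 21 immune cell markers listed, 9 were not analysed, PTPRC among them. Of the 12 analysed, 8 were too low to test. The T cell marker CD3E, the B cell marker CD79A, the integrin ITGAM and the macrophage receptor CSF1R each averaged at most 0.0296 FPKM in either cell type. The monocyte co-receptor CD14 averaged 2.47 FPKM in DPC against 10.1 FPKM in HMC, AIF1 averaged 0.0511 FPKM in DPC against 6.48 FPKM in HMC and LAPTM5 averaged 9.46 FPKM in DPC against 0.257 FPKM in HMC, and their part in the results below was not tested. The sum over the 12 markers lay between 13.6 and 14.1 FPKM in DPC and between 14.7 and 20.2 FPKM in HMC. FPKM do not sum to the same total in the 2 cell types, and the median difference over all tested genes was -0.15 on the log2 scale, against -0.02 after median-of-ratios scaling and 0.04 after quantile normalization. Small differences are therefore given with the scalings under which they changed.

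Of the 150 genes, 82 averaged 0.5 FPKM or more across the 6 libraries and were tested. Limma on log2(FPKM + 1) called 30 of these 82 higher in DPC and 44 higher in HMC, at a Benjamini-Hochberg adjusted p under 0.05, and 8 did not pass. Over all 11883 genes tested, 29.7% were called higher in DPC and 46.2% were called higher in HMC. Of the tested cytokine and receptor genes, the shares were 36.6% and 53.7%, both somewhat above that background, and the filter itself favours genes that are high in one cell type. Only 54.7% of the set was tested, against 75.9% of the whole table. With untested genes included, 30 and 44 of 150 were called, against 3531 and 5489 of 15646. On that basis neither share was above that of the whole table. Ligands leaned further towards HMC than receptors did. Of 37 tested ligands, 12 were higher in DPC and 22 in HMC, with a median log2 difference of -0.87, and these counts were the same under both other scalings. Of 41 tested receptors, 17 were higher in DPC and 21 in HMC, with a median of -0.16, close to that of all genes. The receptor split depended on scaling and became 18 and 14 under median-of-ratios scaling and 19 and 12 under quantile normalization. The split over all tested genes moved in the same direction, with 36.3% higher in DPC and 38.0% higher in HMC under median-of-ratios scaling, and 39.8% and 34.4% under quantile normalization. In bulk RNA, fewer cells that express a gene and less RNA per cell cannot be told apart, and this holds for every value below.

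**Figure D1:**
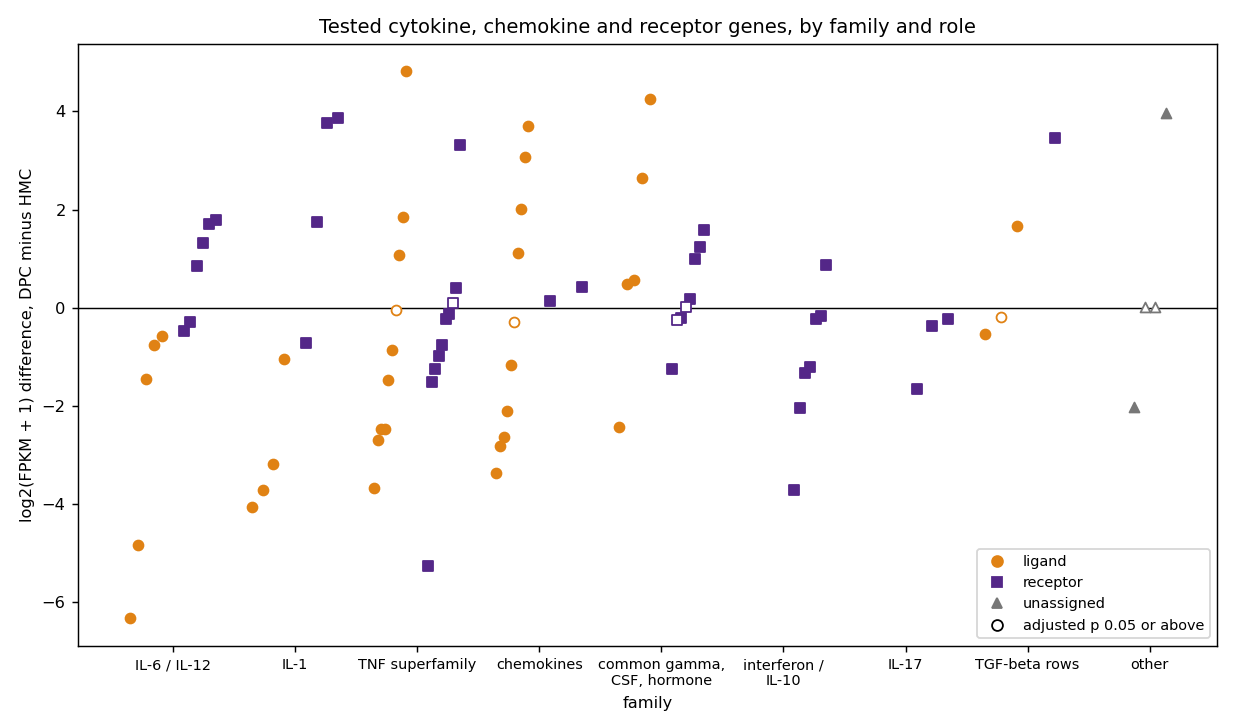
Log2(FPKM + 1) difference, DPC minus HMC, of the 82 tested genes, grouped by family on the horizontal axis and by role in each family, 1 point per gene. Filled points passed the test and open points did not. Tested ligands of the IL-6 and IL-1 families lie below 0, while most tested receptors of these families lie above it.

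The tested ligands of the IL-6 family were higher in HMC and their tested receptors were for the most part higher in DPC. All 5 tested ligands of the IL-6 and IL-12 families were higher in HMC. Of 6 tested receptors, 4 were higher in DPC and 2 in HMC. LIF, leukaemia inhibitory factor, showed the largest difference of the 82 genes. It stood at 2.45, 2.03 and 2.36 FPKM in DPC, against 273, 261 and 254 FPKM in HMC. Every HMC library lay far above every DPC library, where the values rest on 21, 17 and 20 recovered reads. The log2 difference was -6.33 ± 0.064 (SE, adjusted p = 5.88e-11). Folds on this scale understate the change of low genes, because 1 FPKM was added before the logarithm was taken.

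IL6, the inflammatory cytokine that gives the family its name, followed the same pattern. Its levels were 6.97, 6.26 and 8.01 FPKM in DPC, against 231, 234 and 223 FPKM in HMC, a log2 difference of -4.84 ± 0.078 (SE, adjusted p = 4.46e-10). Among the 150 genes in HMC, the chemokine CXCL6 and the receptor TNFRSF12A alone were more abundant than LIF and IL6. The cardiotrophin gene CTF1 stood at 0.785, 0.535 and 1.06 FPKM in DPC, against 3.96, 3.4 and 4.24 FPKM in HMC (log2 difference -1.45, SE 0.13, adjusted p = 1.2e-05). IL11, a cytokine of stromal cells and bone, differed least of the 5 ligands, with 1.46, 1.79 and 1.15 FPKM in DPC, against 2.68, 2.58 and 2.66 FPKM in HMC and a log2 difference of -0.57 ± 0.11 (SE, adjusted p = 0.00141). Its groups did not overlap, and between 32 and 78 reads per library stand behind these values. IL23A (SGRF), a subunit of IL-23, was near the detection limit, with 0, 0.922 and 0.26 FPKM in DPC, against 1.63, 0.993 and 1.23 FPKM in HMC, and passed with a log2 difference of -0.76 ± 0.23 (SE, adjusted p = 0.0161), but not without HMC replicate 1 (log2 difference -0.65, adjusted p = 0.0595).

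Among the receptors, LIFR, the specific subunit for LIF and cardiotrophin, was near 0 in HMC. It stood at 2.9, 2.6 and 2.33 FPKM in DPC, against 0.0745, 0.0736 and 0.164 FPKM in HMC (log2 difference 1.71, SE 0.10, adjusted p = 7.18e-07). The HMC values rest on 4, 4 and 9 reads, so the receptor was close to the detection limit there. OSMR (OSMRB), the oncostatin M receptor, stood at 29.3, 28.5 and 29.1 FPKM in DPC, against 12.3, 9.66 and 11.1 FPKM in HMC (log2 difference 1.32, SE 0.083, adjusted p = 1.38e-06). IL11RA, which binds IL-11, stood at 9.1, 8.82 and 8.41 FPKM in DPC, against 1.96, 1.65 and 1.86 FPKM in HMC (log2 difference 1.79, SE 0.078, adjusted p = 1.37e-07). IL27RA (UNQ296/PRO336), the IL-27 receptor, was higher in DPC as well, at 39.8 FPKM in DPC against 21.6 FPKM in HMC on average (adjusted p = 3.19e-06). In each of these 4 receptors the 3 DPC libraries lay above the 3 HMC libraries. IL6R, the specific subunit for IL-6, went the other way by a small margin, with 3.83, 2.5 and 3.11 FPKM in DPC, against 5.65, 4.25 and 4.41 FPKM in HMC (log2 difference -0.48, SE 0.14, adjusted p = 0.0135), and missed the threshold under quantile normalization. CSF3R (GCSFR), the receptor of the granulocyte factor G-CSF, averaged 11.2 FPKM in DPC against 14 FPKM in HMC (adjusted p = 0.00287) and missed it under both other scalings. The shared signalling subunit IL6ST and the ligand oncostatin M were not analysed here.

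**Figure D2:**
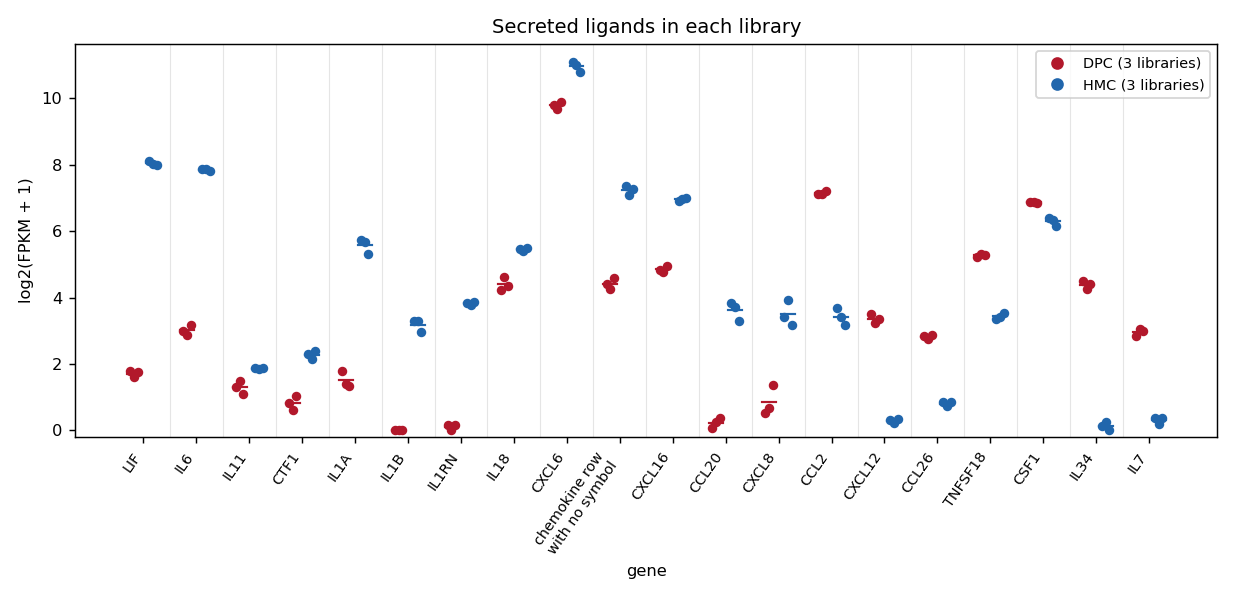
Levels of 20 ligand genes as log2(FPKM + 1) in each of the 6 libraries, with DPC left and HMC right for each gene and a line at the group mean. One chemokine row has no symbol and is marked so. LIF, IL6 and IL1A are high in HMC, while CCL2, IL34 and IL7 are high in DPC.

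The IL-1 family showed the same contrast of ligand and receptor. All 4 tested ligands were higher in HMC, and 3 of 4 tested receptors were higher in DPC. These counts were the same under each scaling. IL1A, the interleukin 1 that epithelial cells keep in store, stood at 2.49, 1.66 and 1.51 FPKM in DPC, against 52.2, 49.7 and 38.8 FPKM in HMC (log2 difference -4.06, SE 0.15, adjusted p = 5.16e-08). IL1B, the secreted form best known from macrophages, was listed at 0 in all 3 DPC libraries, against 8.81, 8.88 and 6.73 FPKM in HMC (adjusted p = 3.5e-08). The antagonist IL1RN, which occupies the IL-1 receptor without signalling, stood at 0.111, 0 and 0.112 FPKM in DPC, against 13.2, 12.7 and 13.6 FPKM in HMC (log2 difference -3.72, SE 0.081, adjusted p = 2.19e-09). Both the agonists and their antagonist were therefore high in the same cells. IL18 (IGIF) differed less, with 17.6, 23.8 and 19.4 FPKM in DPC, against 43.4, 41.1 and 43.8 FPKM in HMC (log2 difference -1.05, SE 0.10, adjusted p = 2.08e-05), and its groups did not overlap.

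IL1R1 (IL1R), the signalling receptor of both forms of IL-1, stood at 21.9, 22.2 and 20.4 FPKM in DPC, against 0.51, 0.698 and 0.787 FPKM in HMC (log2 difference 3.76, SE 0.086, adjusted p = 2.97e-09). IL18R1 (IL1RRP), the ligand-binding chain of the IL-18 receptor, was the most different receptor higher in DPC, with 30.1, 30.2 and 29.9 FPKM in DPC, against 1.36, 0.695 and 1.38 FPKM in HMC (log2 difference 3.87, SE 0.13, adjusted p = 2.79e-08). The 3 DPC libraries were within 1 FPKM of each other for this gene. Its partner chain IL18RAP (IL1R7) averaged 0.0279 FPKM in DPC against 0.0464 FPKM in HMC, below the filter, so both chains of the IL-18 receptor were not found together at a testable level in either cell type. IL1RL1 (DER4), the receptor of IL-33, stood at 4.1, 3.81 and 4.33 FPKM in DPC, against 0.394, 0.543 and 0.634 FPKM in HMC (log2 difference 1.74, SE 0.094, adjusted p = 5.54e-07), while IL33 itself averaged 0 FPKM in DPC against 0.14 FPKM in HMC. The shared accessory chain IL1RAP (C3orf13) was the exception among these receptors and was higher in HMC, with 5.69, 6.36 and 3.83 FPKM in DPC, against 8.26, 10.5 and 8.92 FPKM in HMC (log2 difference -0.72, SE 0.16, adjusted p = 0.0035).

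The TNF superfamily was the largest group, with 34 genes, of which 20 were tested, 5 higher in DPC and 13 in HMC. Under either other scaling these counts were 6 and 11. On the deposited scaling they are 25.0% and 65.0%, against 29.7% and 46.2% of all tested genes. TNFSF18 (UNQ149/PRO175), the ligand of the receptor GITR, stood at 36.6, 38.7 and 37.8 FPKM in DPC, against 9.23, 9.73 and 10.5 FPKM in HMC (log2 difference 1.84, SE 0.062, adjusted p = 2.72e-08). EDA (ED1), the ectodysplasin that is required for the formation of hair follicles, stood at 2.21, 1.42 and 1.66 FPKM in DPC, against 0.308, 0.365 and 0.241 FPKM in HMC (adjusted p = 6.04e-05). Its receptors EDAR (DL) and EDA2R were both listed at 0 in all DPC libraries, and in HMC they averaged 0.035 and 0.0381 FPKM.

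Of the 10 tested TNF superfamily ligands, 3 were higher in DPC and 6 in HMC. LTB (TNFC), lymphotoxin beta, stood at 0.646, 0.248 and 0 FPKM in DPC, against 19.4, 13.8 and 13.3 FPKM in HMC (log2 difference -3.68, SE 0.20, adjusted p = 6.08e-07). TNFSF10 (APO2L), the death ligand TRAIL, stood at 0, 0.176 and 0.0867 FPKM in DPC, against 6.7, 5.96 and 5.49 FPKM in HMC (log2 difference -2.70, SE 0.10, adjusted p = 5.93e-08). TNFSF9, the ligand of the costimulatory receptor 4-1BB, was also clear in DPC, with 8.16, 7.03 and 7.07 FPKM in DPC, against 22.6, 21.2 and 23 FPKM in HMC (log2 difference -1.47, SE 0.073, adjusted p = 3.31e-07). TNFSF15 (TL1) averaged 0.601 FPKM in DPC against 7.81 FPKM in HMC (adjusted p = 1.13e-06), and TNFSF13B (UNQ401/PRO738), the B cell factor BAFF, averaged 0.0496 FPKM in DPC against 4.84 FPKM in HMC (adjusted p = 3.6e-08). In each of these 5 genes no DPC library reached the lowest HMC library. TNFSF12, the ligand TWEAK, was at similar levels with overlapping groups, 26.2, 23.1 and 23.1 FPKM in DPC, against 26.7, 27.3 and 21.5 FPKM in HMC, and did not pass (log2 difference -0.05, SE 0.10, adjusted p = 0.64). TNF (TNFA) lies outside the 150 genes because it is also annotated to TGF-beta signalling. It was listed at 0 in all DPC libraries, against 12.4, 11 and 7.26 FPKM in HMC (adjusted p = 2.74e-07). These HMC values rest on 10, 9 and 6 recovered reads.

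Among TNF receptors the most different was TNFRSF21 (UNQ437/PRO868), death receptor 6, at 2.25, 2.18 and 2.81 FPKM in DPC, against 131, 130.3 and 131 FPKM in HMC (log2 difference -5.28, SE 0.076, adjusted p = 2.66e-10). The decoy receptor TNFRSF6B (UNQ186/PRO212), a soluble protein that binds FAS ligand and TNFSF15, went the other way, with 153, 141 and 145 FPKM in DPC, against 14.5, 14 and 12.9 FPKM in HMC (log2 difference 3.31, SE 0.057, adjusted p = 6.23e-10). TNFRSF12A (FN14), the TWEAK receptor, was the most abundant receptor in both cell types. It made up between 18.8% and 19.9% of the summed receptor FPKM in DPC and between 32.8% and 33.4% in HMC. Its levels were 235, 219.8 and 237 FPKM in DPC, against 463, 464 and 451 FPKM in HMC (log2 difference -0.99, SE 0.039, adjusted p = 6.99e-08).

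TNFRSF1A (TNFR1), the main receptor of TNF, was high in both, with 107, 103 and 102 FPKM in DPC, against 132, 118 and 116 FPKM in HMC and a log2 difference of -0.22 ± 0.055 (SE, adjusted p = 0.0063). That small difference missed the threshold under median-of-ratios scaling and changed sign under quantile normalization. LTBR (D12S370), the lymphotoxin beta receptor, had overlapping groups at 92.3, 91.4 and 83.2 FPKM in DPC, against 79, 87.7 and 83.8 FPKM in HMC and did not pass (log2 difference 0.09, SE 0.058, adjusted p = 0.188), but was called higher in DPC under both other scalings. The next 3 receptors were low and higher in HMC, with no overlap between the groups. TNFRSF1B (TNFBR), the other TNF receptor, averaged 1.62 FPKM in DPC against 3.43 FPKM in HMC (adjusted p = 0.000328). TNFRSF9 (CD137), the receptor 4-1BB, averaged 0.959 FPKM in DPC against 4.63 FPKM in HMC (adjusted p = 2.02e-06). TNFRSF18 (UNQ319/PRO364), the receptor GITR, averaged 0.036 FPKM in DPC against 1.46 FPKM in HMC (adjusted p = 2.14e-05), with between 12 and 18 reads per HMC library and at most 1 per DPC library. CD40 (TNFRSF5) was higher in DPC, at 7.47 FPKM in DPC against 5.45 FPKM in HMC (adjusted p = 0.00464). FAS (APT1) averaged 20.7 FPKM in DPC against 22.7 FPKM in HMC, and its call for HMC (adjusted p = 0.0451) was lost under both other scalings and without any 1 of the 6 libraries, when the adjusted p was between 0.0613 and 0.112.

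**Figure D3:**
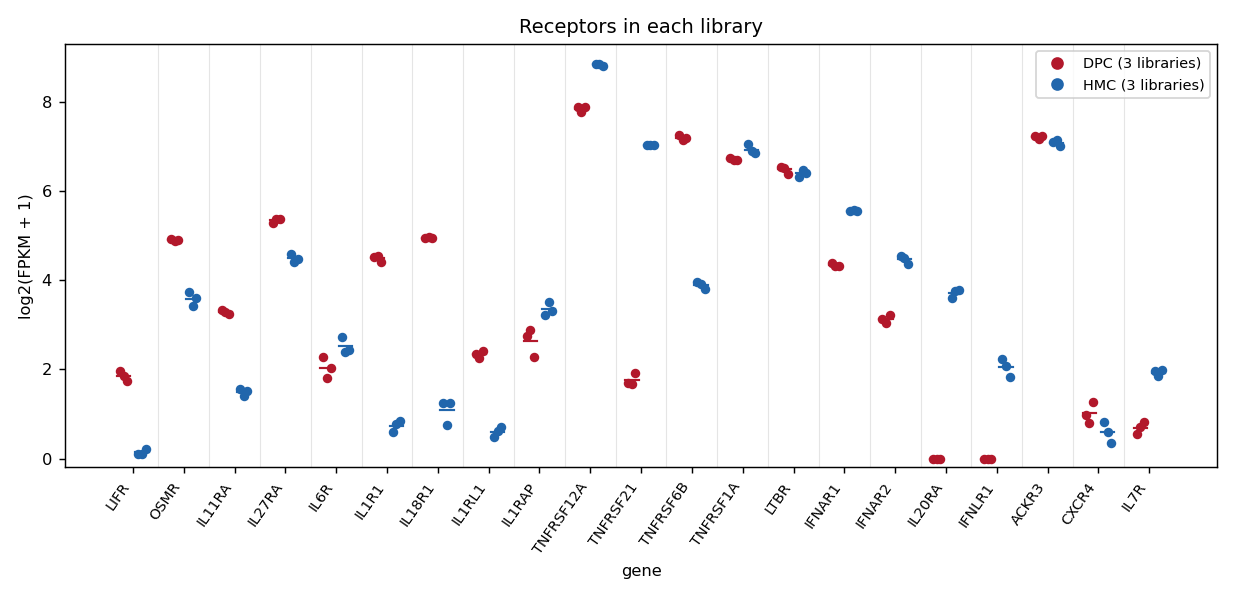
Levels of 21 receptor genes as log2(FPKM + 1) in each of the 6 libraries, with DPC left and HMC right for each gene and a line at the group mean. LIFR, IL1R1, IL18R1 and TNFRSF6B are high in DPC, TNFRSF21, IL20RA and IFNLR1 are high in HMC, and LTBR and ACKR3 are high in both.

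Chemokine ligands split between the cell types by gene. Of 10 tested ligands 4 were higher in DPC and 5 in HMC, under each scaling. CXCL6 (GCP2), which attracts neutrophils, was the most abundant of the 150 genes in both cell types. It stood at 892, 812 and 947 FPKM in DPC, against 2159.7, 2045 and 1769 FPKM in HMC (log2 difference -1.17, SE 0.08, adjusted p = 2.55e-06). It alone made up between 57.7% and 60.3% of the summed ligand FPKM in DPC, and between 61.9% and 64.9% in HMC. Genes of this chemokine cluster are much alike in sequence, and no source used here says how reads shared between copies were counted, so the split between them is uncertain. The row ENSBGRG00000019854, which has no symbol and is annotated to neutrophil chemotaxis, stood at 20.3, 18 and 23.1 FPKM in DPC, against 165, 135 and 152 FPKM in HMC (log2 difference -2.82, SE 0.10, adjusted p = 3.95e-08). CXCL16, a membrane-bound chemokine that is shed, stood at 27.2, 26.4 and 29.7 FPKM in DPC, against 119, 125 and 126 FPKM in HMC (log2 difference -2.11, SE 0.055, adjusted p = 5.89e-09).

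CCL20 (MIP3A), which attracts Langerhans cell precursors and lymphocytes, was near 0 in DPC, with 0.0495, 0.202 and 0.299 FPKM in DPC, against 13.2, 12.1 and 8.77 FPKM in HMC (log2 difference -3.37, SE 0.15, adjusted p = 1.69e-07). CXCL8 (IL8), the neutrophil chemokine interleukin 8, varied most between replicates among the chemokines higher in HMC, with 0.433, 0.59 and 1.6 FPKM in DPC, against 9.57, 14 and 7.99 FPKM in HMC, and passed with a log2 difference of -2.64 ± 0.26 (SE, adjusted p = 2.4e-05). The 4 chemokines higher in DPC were CCL2, CXCL12, CCL26 and CCL5. CCL2 (SCYA2), which attracts monocytes, stood at 139, 136 and 145 FPKM in DPC, against 11.9, 9.77 and 7.94 FPKM in HMC (log2 difference 3.71, SE 0.12, adjusted p = 2.12e-08). CXCL12 (SDF1), a stromal chemokine that retains blood progenitors, stood at 10.4, 8.36 and 9.19 FPKM in DPC, against 0.232, 0.164 and 0.259 FPKM in HMC (log2 difference 3.08, SE 0.10, adjusted p = 1.67e-08). CCL26, which attracts eosinophils, stood at 6.16, 5.7 and 6.26 FPKM in DPC, against 0.814, 0.653 and 0.796 FPKM in HMC (log2 difference 2.01, SE 0.082, adjusted p = 9.2e-08). In none of these 3 did the groups overlap. CCL5 (SCYA5) averaged 1.32 FPKM in DPC against 0.0692 FPKM in HMC (adjusted p = 1.07e-05), and CCL25 averaged 3.56 FPKM in DPC against 4.55 FPKM in HMC with overlapping groups and did not pass (log2 difference -0.29, SE 0.12, adjusted p = 0.0657).

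Chemokine receptors were scarce. Of 8 in the set, ACKR3 and CXCR4 were tested, and the other 6 averaged 0.251 FPKM or less in each cell type. ACKR3 (CMKOR1), a receptor that takes up CXCL12 without G protein signalling, was high in both, with 149.9, 143 and 149 FPKM in DPC, against 136, 140.0 and 128 FPKM in HMC. It passed for DPC by a narrow margin, with a log2 difference of 0.13 ± 0.044 (SE, adjusted p = 0.0282), and missed the threshold without DPC replicate 1, DPC replicate 3 or HMC replicate 3, when the log2 difference was between 0.093 and 0.12. The signalling receptor of CXCL12, CXCR4, was low, with 0.973, 0.746 and 1.42 FPKM in DPC, against 0.759, 0.516 and 0.278 FPKM in HMC, and its groups overlapped although it passed (log2 difference 0.43, SE 0.16, adjusted p = 0.0369). It missed the threshold without DPC replicate 1 or 3 or HMC replicate 2 or 3, when the log2 difference was between 0.30 and 0.45. CXCR2 (IL8RB), the receptor of CXCL6 and CXCL8, was listed at 0 in all DPC libraries and averaged 0.0129 FPKM in HMC, and CXCR6 (BONZO), the receptor of CXCL16, was likewise listed at 0 in DPC and averaged 0.00897 FPKM in HMC.

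Of 5 tested ligands of the common gamma chain and colony-stimulating groups, 4 were higher in DPC and 1 in HMC. That is 80.0% and 20.0% of few genes, against 29.7% and 46.2% of all tested genes. CSF1, the macrophage growth factor, was abundant in both, with 116, 115 and 115 FPKM in DPC, against 82.4, 79.3 and 70.7 FPKM in HMC (log2 difference 0.57, SE 0.058, adjusted p = 3.38e-05). IL34, another ligand of the same receptor, was near 0 in HMC, with 21.6, 18.1 and 20.3 FPKM in DPC, against 0.1, 0.199 and 0 FPKM in HMC (log2 difference 4.26, SE 0.10, adjusted p = 3.43e-09). That receptor, CSF1R (FMS), averaged 0.0122 FPKM in DPC against 0.00581 FPKM in HMC. CSF1R RNA was thus near 0 in both cell types, while at least one of its ligands was abundant in each. IL7, the growth factor of early lymphocytes, stood at 6.11, 7.22 and 6.93 FPKM in DPC, against 0.295, 0.146 and 0.289 FPKM in HMC (log2 difference 2.64, SE 0.10, adjusted p = 4.36e-08). IL15 was low in both and higher in DPC, at 2.3 FPKM in DPC against 1.35 FPKM in HMC (adjusted p = 0.0105). CSF2, the granulocyte and macrophage factor GM-CSF, was the ligand of this group higher in HMC, with 0.859, 1.23 and 0.693 FPKM in DPC, against 11.7, 9.43 and 7.21 FPKM in HMC (log2 difference -2.43, SE 0.17, adjusted p = 2.89e-06).

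Of 8 tested receptors of these groups, 4 were higher in DPC and 2 in HMC, and 2 did not pass. The first 2 counts are 50.0% and 25.0%, against 29.7% and 46.2% of all tested genes. IL7R stood at 0.457, 0.623 and 0.769 FPKM in DPC, against 2.87, 2.59 and 2.96 FPKM in HMC and was higher in HMC (log2 difference -1.24, SE 0.10, adjusted p = 7.47e-06). The common gamma chain itself, IL2RG, averaged 0.359 FPKM in DPC against 0.0469 FPKM in HMC, below the filter. GHR, the growth hormone receptor, was higher in DPC at 2.23 FPKM in DPC against 0.0779 FPKM in HMC (adjusted p = 6.39e-07), and so was IL15RA at 4.05 FPKM in DPC against 1.15 FPKM in HMC (adjusted p = 1.49e-05). IL4R averaged 21.2 FPKM in DPC against 18.8 FPKM in HMC (adjusted p = 0.0176) and was higher in DPC under each scaling, but missed the threshold without HMC replicate 2 (adjusted p = 0.0505). IL13RA1 (IL13R), its partner in the IL-13 receptor, averaged 34.3 FPKM in DPC against 39.7 FPKM in HMC, and its call for HMC (adjusted p = 0.00382) was lost under both other scalings. CSF2RA (CSF2R), the GM-CSF receptor, averaged 1.2 FPKM in DPC against 1.18 FPKM in HMC and did not pass (adjusted p = 0.91), and IL3RA (IL3R) averaged 0.615 FPKM in DPC against 0.942 FPKM in HMC and did not pass (adjusted p = 0.177).

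No interferon ligand or ligand of the IL-10 family passed the filter, while 7 of their 9 receptors did. Of the receptors, 5 were at 1 FPKM or more in every DPC library and 7 in every HMC library. IL10RA, the specific chain for IL-10, averaged 0.464 FPKM in DPC against 0.334 FPKM in HMC. IL22RA1 averaged 0 FPKM in DPC against 0.106 FPKM in HMC, and both were below the filter. Of 7 tested receptors 1 was higher in DPC and 6 in HMC, against 1 and 4 under median-of-ratios scaling and 2 and 4 under quantile normalization. On the deposited scaling the shares were 14.3% and 85.7%, against 29.7% and 46.2% of all tested genes. The type I interferon receptor was higher in HMC in both its subunits. IFNAR1 (IFNAR) stood at 20.1, 19.1 and 18.9 FPKM in DPC, against 45.8, 47.1 and 46.2 FPKM in HMC (log2 difference -1.22, SE 0.049, adjusted p = 7.95e-08). IFNAR2 (IFNARB) stood at 7.8, 7.3 and 8.36 FPKM in DPC, against 22.3, 21.8 and 19.6 FPKM in HMC (log2 difference -1.33, SE 0.075, adjusted p = 6.98e-07). The 3 HMC libraries lay above the 3 DPC libraries for both genes.

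IFNLR1 (IL28RA), the receptor of the lambda interferons that act on epithelia, was listed at 0 in all DPC libraries, against 3.72, 3.23 and 2.54 FPKM in HMC (adjusted p = 7.79e-07). IL20RA (UNQ681/PRO1315), a receptor of the skin cytokines IL-19, IL-20 and IL-24, was listed at 0 in all DPC libraries too, against 11.2, 12.5 and 12.9 FPKM in HMC (adjusted p = 2.23e-09). Of the interferon gamma receptor, IFNGR1 was higher in DPC, with 22.7, 22.3 and 26.5 FPKM in DPC, against 13.8, 11.5 and 12.3 FPKM in HMC (log2 difference 0.88, SE 0.089, adjusted p = 3.29e-05). IFNGR2 averaged 85.4 FPKM in DPC against 95.7 FPKM in HMC, and its call for HMC (adjusted p = 0.011) was lost under median-of-ratios scaling and became a call for DPC under quantile normalization. The shared IL10RB (CRFB4) averaged 31 FPKM in DPC against 36.4 FPKM in HMC (adjusted p = 0.0171) and passed under neither other scaling, nor without DPC replicate 3 (adjusted p = 0.0575). Of the IL-17 receptors, IL17RE (UNQ3056/PRO9877) was higher in HMC under each scaling, at 0.0627 FPKM in DPC against 2.34 FPKM in HMC (adjusted p = 1.2e-06). The call for IL17RA in HMC was lost under both other scalings, and that for IL17RC was lost under quantile normalization. No IL-17 ligand passed the filter.

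The rest of the set is small. ACVRL1, a receptor of BMP ligands known from endothelium that the table does not annotate to TGF-beta signalling, stood at 10.7, 12.1 and 10.9 FPKM in DPC, against 0.0834, 0.0412 and 0.204 FPKM in HMC (log2 difference 3.47, SE 0.092, adjusted p = 6.75e-09). Of 7 endothelial markers analysed, PECAM1, CDH5, KDR, CLDN5 and EMCN were too low to test. VWF averaged 0.0355 FPKM in DPC against 1.08 FPKM in HMC (adjusted p = 9.37e-06). ENG (endoglin), which mesenchymal cells carry as well, averaged 60.8 FPKM in DPC against 1.96 FPKM in HMC (adjusted p = 1.6e-10), in the same direction as ACVRL1. The 7 markers summed to between 59.97 and 63.04 FPKM in DPC and between 3.04 and 3.24 FPKM in HMC, and their part in the result was not tested. GDF15, a stress-induced hormone, was higher in DPC at 15.2 FPKM in DPC against 4.12 FPKM in HMC (adjusted p = 3.24e-06), GDF11 (Bmp11) was higher in HMC at 6.5 FPKM in DPC against 9.91 FPKM in HMC (adjusted p = 0.000613), and INHA did not pass at 0.716 FPKM in DPC against 0.947 FPKM in HMC (adjusted p = 0.227). A row named C1qtnf6, whose other annotation does not place it among cytokines, stood at 16.5, 17.7 and 16.7 FPKM in DPC, against 0.197, 0.117 and 0.154 FPKM in HMC (log2 difference 3.96, SE 0.074, adjusted p = 9.41e-10). Of the rows without a role, QccE-10051 averaged 3.84 FPKM in DPC against 3.82 FPKM in HMC (adjusted p = 0.964), and ENSBGRG00000002893 averaged 2.08 FPKM in DPC against 2.25 FPKM in HMC (adjusted p = 0.976), and neither passed. UNQ3096/PRO21175 was higher in HMC at 0.984 FPKM in DPC against 7.08 FPKM in HMC (adjusted p = 4.49e-07). The 68 genes that were not tested averaged at most 0.80 FPKM in DPC and 0.52 FPKM in HMC. They hold 33 ligands, 32 receptors and 3 rows without a role.

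To set ligands against receptors, 142 known pairs were listed, of which 47 had a gene of this set and all specific receptor subunits in the table. A pair counted as present by level. The ligand had to be at 1 FPKM or more in every library of the sending cell type. The lowest analysed receptor subunit had to be at 1 FPKM or more in every library of the receiving one. A shared chain that was not analysed was passed over, whereas a shared chain that was analysed counted. From HMC to DPC, 11 pairs were present, and from DPC to HMC, 6 pairs were present. Within one cell type, 6 pairs were present in DPC and 8 in HMC, and 33 pairs were present in no direction. Of the 47 pairs, the ligand reached this level in 27 in HMC and in 21 in DPC. The receptor reached it in 14 in DPC and in 11 in HMC. Several pairs share a ligand or a receptor, so they are not independent of each other. These counts describe RNA levels, and neither protein nor signalling was measured.

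Of the 11 pairs from HMC to DPC, 4 had a ligand of the IL-6 family, 3 one of the IL-1 family and 4 one of the TNF superfamily. For the IL-6 family pairs the shared signalling subunit IL6ST was not analysed. Their presence thus rests on LIFR, IL11RA or IL6R alone. LIF with LIFR, CTF1 with LIFR, and IL1A, IL1B and the antagonist IL1RN with IL1R1 were each present in this direction. None of these 5 had its receptor at 1 FPKM in every HMC library, where LIFR was at most 0.16 FPKM and IL1R1 at most 0.79 FPKM. Of these 5, CTF1, IL1B and IL1RN were present between the cell types in this direction alone, while LIF and IL1A were also present from DPC to DPC at their low DPC levels. The remaining 6 were IL11 with IL11RA, IL6 with IL6R, TNFSF12 with TNFRSF12A, LTB with LTBR, and TNF with either of its receptors. IL11, IL6 and TNFSF12 formed pairs in all 4 directions. LTB and TNF formed pairs from HMC to DPC and from HMC to HMC, with TNF in HMC resting on 10, 9 and 6 recovered reads.

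From DPC to HMC the pairs absent in the opposite direction were 3. CXCL12 with ACKR3 was present from DPC to HMC and from DPC to DPC. TNFSF18 with TNFRSF18 and TNFSF9 with TNFRSF9 were present from DPC to HMC and from HMC to HMC, since both receptors were under 1 FPKM in at least 1 DPC library. TNFRSF18 stood only just above the level asked for, with a lowest value of 1.21 FPKM.

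In 8 of the 47 pairs the ligand was called higher in one cell type and every specific receptor subunit higher in the other. Of these, 6 had the ligand higher in HMC and the receptor in DPC, namely LIF and CTF1 with LIFR, IL11 with IL11RA, and IL1A, IL1B and IL1RN with IL1R1. The accessory chain IL1RAP, which IL1A and IL1B need, counted for presence but not here because other receptors share it, and it was higher in HMC like these ligands. All 6 were also present at 1 FPKM. The other 2 had the ligand higher in DPC, TNFSF18 with TNFRSF18 and IL7 with IL7R. The pair of IL7 and IL7R was not present, because IL7R was at 2.59 FPKM or more in HMC but the common gamma chain was at 0 in 1 HMC library. For comparison, 2 pairs had ligand and receptor both higher in DPC, and 4 had both higher in HMC. In the DPC pairs this was CXCL12 with CXCR4 and with ACKR3. In the HMC pairs it was IL6 with IL6R, TNF with both receptors, and TNFSF9 with TNFRSF9. The calls of CXCR4, ACKR3, IL6R and TNFRSF1A among these changed with the settings described above, and TNF rests on the few reads given above.

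**Figure D4:**
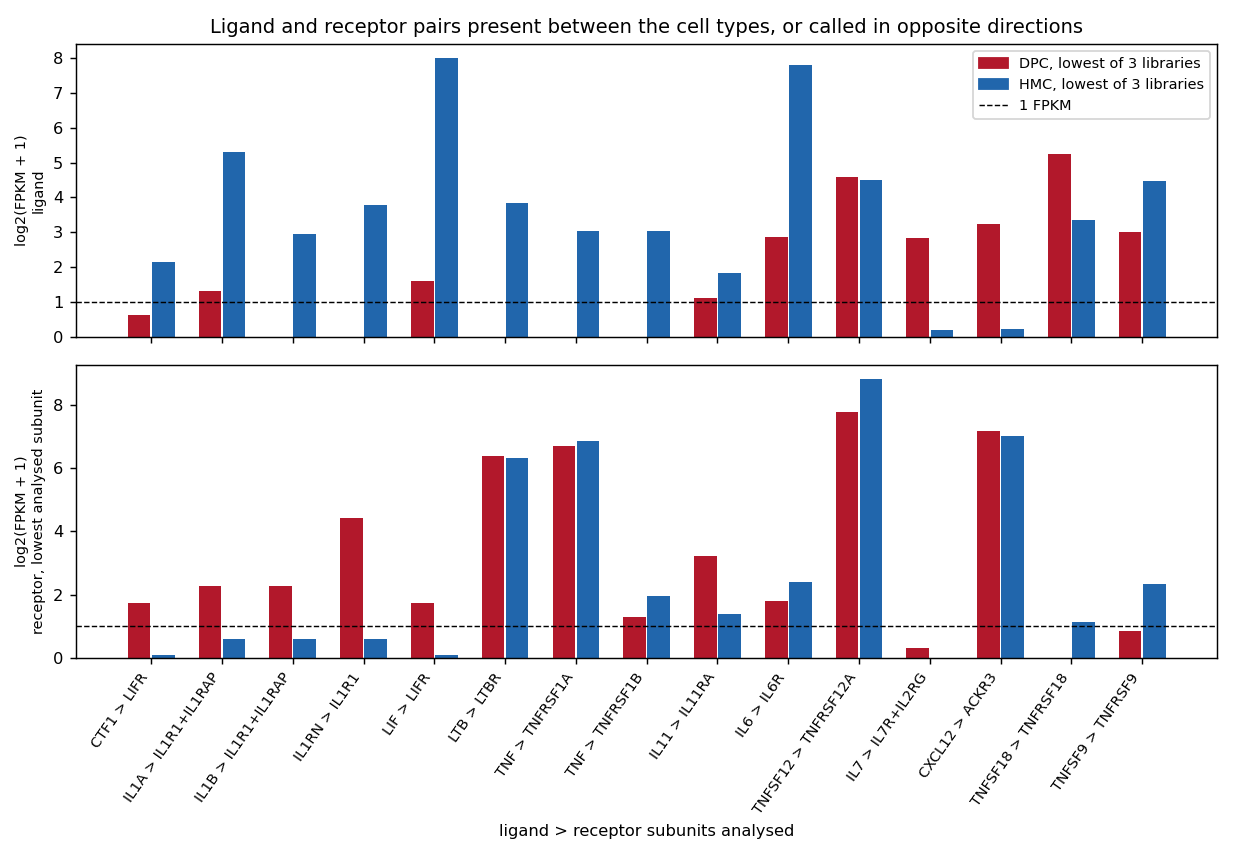
Lowest log2(FPKM + 1) over the 3 libraries of each cell type for the ligand (top) and for the lowest analysed receptor subunit (bottom) of 15 pairs that were present between the cell types or called in opposite directions, with DPC left and HMC right for each pair. The dashed line marks 1 FPKM. For LIF, CTF1, IL1A, IL1B and IL1RN the HMC ligand bar and the DPC receptor bar pass the line while the HMC receptor bar does not.

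For several abundant ligands the listed receptor was low in both cell types. CSF1 and IL34 with CSF1R, CXCL6 and CXCL8 with CXCR2, CXCL16 with CXCR6, and CCL2 with the scavenger ACKR2 all lacked a receptor at 1 FPKM in both. The receptors CXCR1 and CCR2, and many others of the chemokine group, were not analysed here. For EDA the receptors were as low, as given above.

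The genes that carry these signals inside the cell were not members of the set and were read from the same fit. Of 36 tested transducers of TNF, IL-1 and NF-kB signalling 2 were higher in DPC, 25 were higher in HMC and 9 did not pass, which is 5.56% and 69.4% of the list, against 29.7% and 46.2% of all tested genes. The median log2 difference of this list was -0.46, against -0.15 over all tested genes. Under median-of-ratios scaling the counts were 3 and 21, where all tested genes stood at 36.3% and 38.0%, and under quantile normalization 4 and 18, where they stood at 39.8% and 34.4%. REL, an NF-kB subunit of lymphoid cells, stood at 0, 0.0427 and 0.169 FPKM in DPC, against 6.03, 6.56 and 8.21 FPKM in HMC (log2 difference -2.88, SE 0.12, adjusted p = 1.13e-07). NFKB2, the subunit of the non-canonical pathway, averaged 24.6 FPKM in DPC against 71.8 FPKM in HMC (log2 difference -1.51, SE 0.052, adjusted p = 3.42e-08). TNFAIP3 (Tnfip3), a feedback inhibitor that NF-kB induces, averaged 4.29 FPKM in DPC against 18.3 FPKM in HMC (log2 difference -1.86, SE 0.089, adjusted p = 2.59e-07), whereas NFKBIA (IKBA), another such inhibitor, averaged 31.7 FPKM in DPC against 33.9 FPKM in HMC and did not pass (adjusted p = 0.443). The adaptor TRAF4 (CART1) averaged 13.3 FPKM in DPC against 71.7 FPKM in HMC (log2 difference -2.35, SE 0.082, adjusted p = 3.49e-08). TRAF5 (RNF84) was higher in DPC, at 3.01 FPKM in DPC against 0.78 FPKM in HMC (adjusted p = 2.82e-05). MYD88, the adaptor of the IL-1 receptors, averaged 28.7 FPKM in DPC against 42.7 FPKM in HMC and was higher in HMC (adjusted p = 4.06e-05). These genes, like those named in the next paragraphs, were picked from the lists after their values were seen.

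The JAK-STAT list had no common direction, and on the deposited scaling its split was close to that of all tested genes. Of the 25 tested, 8 were higher in DPC and 11 in HMC, where all tested genes stood at 29.7% and 46.2%. The median was 0.02, against -0.15 over all tested genes. Under median-of-ratios scaling the counts were 11 and 9, where all tested genes stood at 36.3% and 38.0%. Under quantile normalization they were 13 and 8, where all tested genes stood at 39.8% and 34.4%. The feedback inhibitors of the list split. SOCS1 (SSI1), which blocks JAK kinases, stood at 13.7, 10.9 and 12.9 FPKM in DPC, against 0.538, 0.638 and 1.16 FPKM in HMC (log2 difference 2.94, SE 0.14, adjusted p = 2.75e-07). SOCS2 averaged 4.61 FPKM in DPC against 0.353 FPKM in HMC (log2 difference 2.05, SE 0.094, adjusted p = 1.88e-07) and SOCS3, the inhibitor of the IL-6 receptor complex, averaged 4.49 FPKM in DPC against 2.11 FPKM in HMC (log2 difference 0.81, SE 0.11, adjusted p = 0.000155), both higher in DPC. CISH, which STAT5 induces, stood at 1.58, 0.504 and 1.74 FPKM in DPC, against 25.7, 21 and 21.2 FPKM in HMC and was higher in HMC (log2 difference -3.42, SE 0.22, adjusted p = 1.52e-06). PTPN6 (HCP), a phosphatase that ends JAK signals, was near 0 in DPC, with 0.0363, 0.0371 and 0 FPKM in DPC, against 16.8, 14.6 and 14.9 FPKM in HMC (adjusted p = 1.57e-09). STAT3, the main factor downstream of IL-6 and LIF, averaged 18.2 FPKM in DPC against 21.9 FPKM in HMC, and its call for HMC (adjusted p = 0.00222) was lost under both other scalings. JAK1 (JAK1A) did not pass at 41.3 FPKM in DPC against 40.5 FPKM in HMC (adjusted p = 0.701) and was called higher in DPC under both other scalings.

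**Figure D5:**
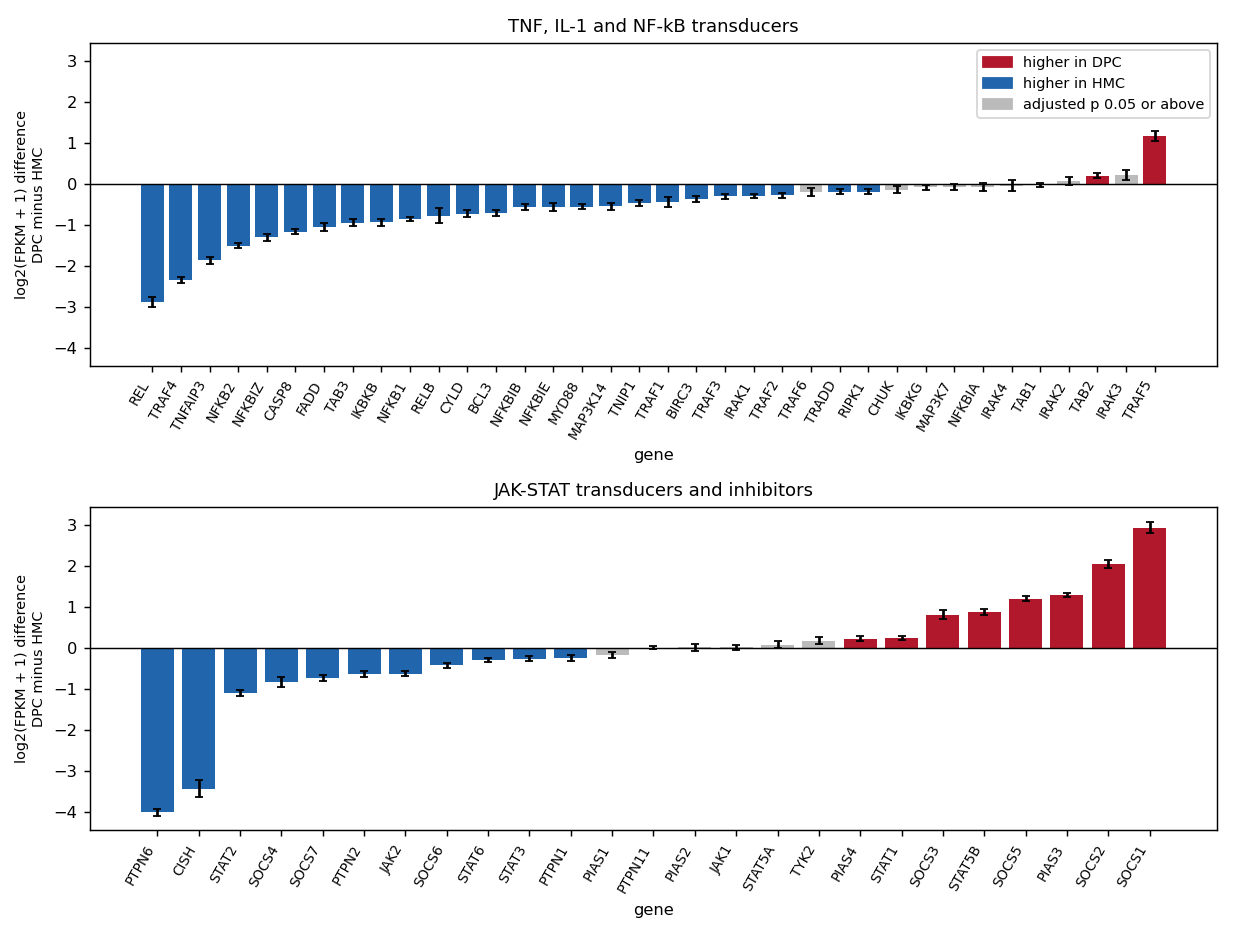
Log2(FPKM + 1) difference, DPC minus HMC, with its standard error, for the tested genes of the NF-kB list (top, 36 genes) and of the JAK-STAT list (bottom, 25 genes). In the first list 25 genes are lower in DPC than in HMC by the test, and in the second 8 are higher in DPC and 11 in HMC.

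Of 16 tested genes of the list on chemokine receptor signalling, 3 were higher in DPC and 10 in HMC. That is 18.8% and 62.5% of the list, against 29.7% and 46.2% of all tested genes. Under median-of-ratios scaling the counts were 3 and 8, where all tested genes stood at 36.3% and 38.0%. Under quantile normalization they were 6 and 7, where all tested genes stood at 39.8% and 34.4%. RAC2, a GTPase of blood cells, averaged 0.189 FPKM in DPC against 14.7 FPKM in HMC (log2 difference -3.73, SE 0.091, adjusted p = 4.17e-09), and the receptor kinase GRK5 (GPRK5) averaged 0.707 FPKM in DPC against 18.8 FPKM in HMC (log2 difference -3.54, SE 0.072, adjusted p = 1.53e-09), while the exchange factor PREX1 (KIAA1415) averaged 15.5 FPKM in DPC against 1.06 FPKM in HMC (log2 difference 3.01, SE 0.085, adjusted p = 9.64e-09). Of 11 tested genes that process or bind cytokines, 4 were higher in DPC and 7 in HMC (36.4% and 63.6%). All tested genes stood at 29.7% and 46.2%, and with 11 genes the list is too small to set apart from them. Its counts were 4 and 7 under median-of-ratios scaling, where all tested genes stood at 36.3% and 38.0%. Under quantile normalization they were 4 and 6, where all tested genes stood at 39.8% and 34.4%. ADAM10 (MADM), a protease that sheds CXCL16, averaged 34.5 FPKM in DPC against 185 FPKM in HMC (log2 difference -2.38, SE 0.041, adjusted p = 6.02e-10), in the same direction as CXCL16. CASP1 (IL1BC), the protease that matures IL-1 beta and IL-18, averaged 0.0119 FPKM in DPC against 0.0675 FPKM in HMC, below the filter. CD74 (DHLAG), the MIF receptor and class II invariant chain, stood at 0.992, 0.386 and 0.81 FPKM in DPC, against 413, 397 and 417 FPKM in HMC (log2 difference -7.91, SE 0.12, adjusted p = 3.53e-10), and MIF averaged 5.56 FPKM in DPC against 8.46 FPKM in HMC (adjusted p = 0.00259). SIGIRR (UNQ301/PRO342), an inhibitory receptor of the IL-1 family, averaged 1.16 FPKM in DPC against 10 FPKM in HMC (adjusted p = 5.88e-07).

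The annotation of the 150 genes to other pathway maps, which did not choose them, differed in how the calls split. Over all 11883 genes tested, 29.7% were higher in DPC and 46.2% in HMC. Over the tested cytokine and receptor genes the shares were 36.6% and 53.7%. Of 12 tested genes also annotated to IL-17 signalling, 1 was higher in DPC and 11 were higher in HMC (8.33% and 91.7%). Their median log2 difference was -2.23. The exception was CCL2. Of 15 annotated to TNF signalling and tested, 5 were higher in DPC and 10 in HMC (33.3% and 66.7%), with a median of -0.76. Of 31 tested genes annotated to Jak-STAT signalling 12 were higher in DPC and 17 in HMC, with a median of -0.22, close to that of all genes. These are 38.7% and 54.8%, close to the shares of the tested cytokine and receptor genes. The maps share genes, so these counts are not independent of each other, and they were made on the deposited scaling alone.

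Replicates of the set were close to each other. Over the genes that averaged 5 FPKM or more in a cell type, the median coefficient of variation between replicates was 4.48% in DPC (42 genes) and 7.05% in HMC (44 genes). Over the whole table it was 5.09% in DPC and 5.66% in HMC. In HMC the most variable was CXCL8, with a coefficient of variation of 29.8%, followed by CSF2 with 23.9% and LTB with 22.0%. In DPC it was IL1RAP, with 24.8%.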

How the data were processed

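Libraries came from Trizol-extracted RNA with a stranded TruSeq mRNA kit, per the labels' protocols. Trimmomatic, HISAT2 2.2.1.0 and DESeq 1.20.0 are named in the submitters' processing notes, with no role given. No source used here gives the read counter, the genome build or the annotation. The deposited table holds FPKM made by the authors, 1 column per library. FPKM corrects for gene length and depth, but not for RNA composition. In 100% of genes the values were whole multiples of a step (relative tolerance 1e-09), which gave recovered reads, known up to a common factor per gene. These reads were not tested, since the factor leaves their error unknown, and low values carry counting error.

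Genes averaging 0.5 FPKM or more were tested with limma 3.58.1 (R 4.3.3) on log2 values of the deposited FPKM plus 1, with a trended prior and Benjamini-Hochberg adjustment over all 11883 tested genes. The step was tested on simulated data. The sign is DPC minus HMC. Named genes are up to 12 per direction by size of difference, the 10 most abundant in each cell type, both sides of the pairs counted, and tested genes that did not pass. Any other gene was picked once its values were known. The 150 genes and all lists and pairs were chosen with earlier results of these data known. Many rows carry older symbols, given in parentheses, which were matched to current names by hand. Python 3.11.15, pandas 2.3.3 and matplotlib 3.10.9 were used. The miRNA data were not analysed here. A few genes that entered the fits and counts are not reported here by name.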

Additional observations from a re-analysis of the deposited data

How the results depend on the processing

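Counts of genes higher in DPC (30) and in HMC (44) lay between 28 and 40 and between 35 and 53 under the other settings, except at a filter of 5 FPKM. That filter left 48 genes to test and gave 18 higher in DPC and 28 in HMC. Leaving out 1 library gave between 28 and 30 genes higher in DPC and 43 higher in HMC. The 8 opposed pairs became 2 at the 5 FPKM filter, with 0 having the ligand higher in DPC and 2 in HMC, because the ligand or the receptor of each of the other 6 was no longer tested. With 5 FPKM as the level for presence, 2 pairs in place of 6 were present from DPC to HMC and 4 in place of 11 from HMC to DPC. No other alternative moved a pair count by more than 1.5 times. Over the 50 named and tested genes, 616 of 631 values kept their direction and side of the threshold. Under quantile normalization TNFRSF1A changed sign to 0.080 and IFNGR2 to 0.15. Same-numbered replicates of the 2 cell types did not deviate together (correlations of 0.02, 0.03 and 0.01), so the numbers were not taken as pairs. With the replicate block, 28 genes higher in DPC and 44 higher in HMC were called, with 8 opposed pairs, and ACKR3, CXCR4 and FAS missed the threshold (adjusted p = 0.0502, 0.0607 and 0.0851) while CCL25 passed it (adjusted p = 0.0212).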
